A study of Mus musculus with 4 samples.

Results

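The centromere side of mouse chromosome 14 was described through the HindIII fragments (build mm9) whose midpoint lies below 49.7 Mb and which had reads in at least 1 of 16 4C-seq libraries. There were 9780 such fragments, out of 506753 listed on all chromosomes and 26314 on chromosome 14. They run from 3.00 Mb, where the first listed fragment starts, to 49.7 Mb, a length of 46.7 Mb. The rule uses position and the presence of at least 1 read in any library, and no level of contact. The 4C viewpoints sit in the Tcra/Tcrd locus at 54677060 to 54773311 of the same chromosome, so every member is 5.02 to 51.7 Mb away from them on the centromeric side.

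Contacts were measured in CD4- CD8- thymocytes (DN) of 3 week old C57BL/6 mice carrying Rag2-/-, a deletion that blocks the assembly of antigen receptor genes and holds thymocytes at the double-negative stage. They were set against naive B cells from the spleen of wild type C57BL/6 mice (B), whose age the labels do not give. Each cell type had 2 samples, each read from the viewpoints TEA, INT1, INT2 and Ed. TEA is a germline promoter ahead of the Jα segments, Ed is the enhancer of Tcrd, and the labels do not define INT1 and INT2. Thymocytes were taken from litters, so more than 1 animal may stand behind a sample, and nothing says whether samples came from separate litters or cultures. The p-values below therefore measure at most the spread between samples. In limma that spread is drawn in part, and in some fits wholly, from the other stretches tested. Those for pairs of viewpoints measure the spread between libraries within samples. Genotype, tissue and, per the file headers, the sequencing folder all differ together with cell type: each DN sample had a folder of its own and both B samples came from the same one. These cannot be told apart from cell type here.

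In 4C-seq, crosslinked chromatin is cut and religated, and the fragments joined to a chosen viewpoint are amplified and read. Close to the viewpoint nearly every fragment is recovered, while many megabases away contacts are rare and each fragment is captured by chance in few libraries. Each chromosome tends to occupy its own territory in the nucleus, and contacts within a chromosome usually outnumber those with other chromosomes at any distance. Far contacts are also commonly seen between chromatin of like activity. The interval holds no part of the antigen receptor locus itself. In the RefSeq annotation of another build (GRCm38.p6), which was used for gene order alone, 471 protein-coding genes precede the first Trav gene on this chromosome. Among familiar names they include, in this order, the fragile-site gene Fhit, the nuclear receptors Rarb and Thrb, the secreted ligand Wnt5a, the kinase Prkcd, the ligand Bmp4 and the homeobox gene Otx2. The count of 471 runs up to Trav, so it also takes in any genes between the interval's upper limit and Trav. It is not the gene content of the interval. No annotation of mm9 was at hand, so bins and fragments below carry positions and no genes.

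2 measures were used throughout. A fragment with any read in a library was called captured, which counts each fragment once however many PCR copies it gave. Reads were the authors' values per fragment in RPM, reads scaled to a total of 1000000 mapped reads. Both were divided by length and set against the mean density per Mb on the 18 other autosomes of the same library, so that 1 means the density of another chromosome. The libraries held 1220738 to 17287420 mapped reads, and PCR copies of a ligation product cannot be told from further products, since no molecular identifiers were used. DN sample 1 captured 1975, 2210, 866 and 629 of the 9780 members from TEA, INT1, INT2 and Ed, and DN sample 2 captured 1387, 1053, 803 and 536. B sample 1 captured 2387, 2215, 1498 and 836, and B sample 2 captured 2812, 1873, 1923 and 969. Captured numbers were lower in DN than in B from 3 of the viewpoints and overlapped from INT1. They were lowest from Ed within each of the 4 samples.

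The centromere side was contacted above the level of another chromosome in every library. In captured fragments, the density from TEA was 1.21 and 1.28 times that of the other autosomes in DN, against 1.2 and 1.21 in B. From INT1 it was 1.31 and 1.49 in DN and 1.18 and 1.24 in B. From INT2 it was 1.33 and 1.39 in DN and 1.22 and 1.30 in B. All 4 samples thus lay above 1 from these viewpoints, with both DN samples above both B samples, narrowly so from TEA. From Ed the values were 1.29 and 1.40 in DN and 1.32 and 1.15 in B, so that the cell types overlapped.

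In all 16 libraries this density was above that of each of the 18 other autosomes. The highest of those autosomes reached 1.07 to 1.18 in DN libraries and 1.05 to 1.13 in B libraries. In reads the excess was larger. For TEA the read density was 1.40 and 1.51 in DN, against 1.29 and 1.33 in B. For INT1 it was 1.43 and 1.79 in DN and 1.26 and 1.27 in B. For INT2 it was 1.55 and 1.40 in DN and 1.34 and 1.42 in B, the only viewpoint where the cell types overlapped. For Ed it was 1.63 and 1.88 in DN and 1.57 and 1.37 in B. Read density too was above each of the 18 other autosomes in 16 of 16 libraries, most narrowly from Ed in B sample 1, where 1 autosome reached 1.54.

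**Figure D1:**
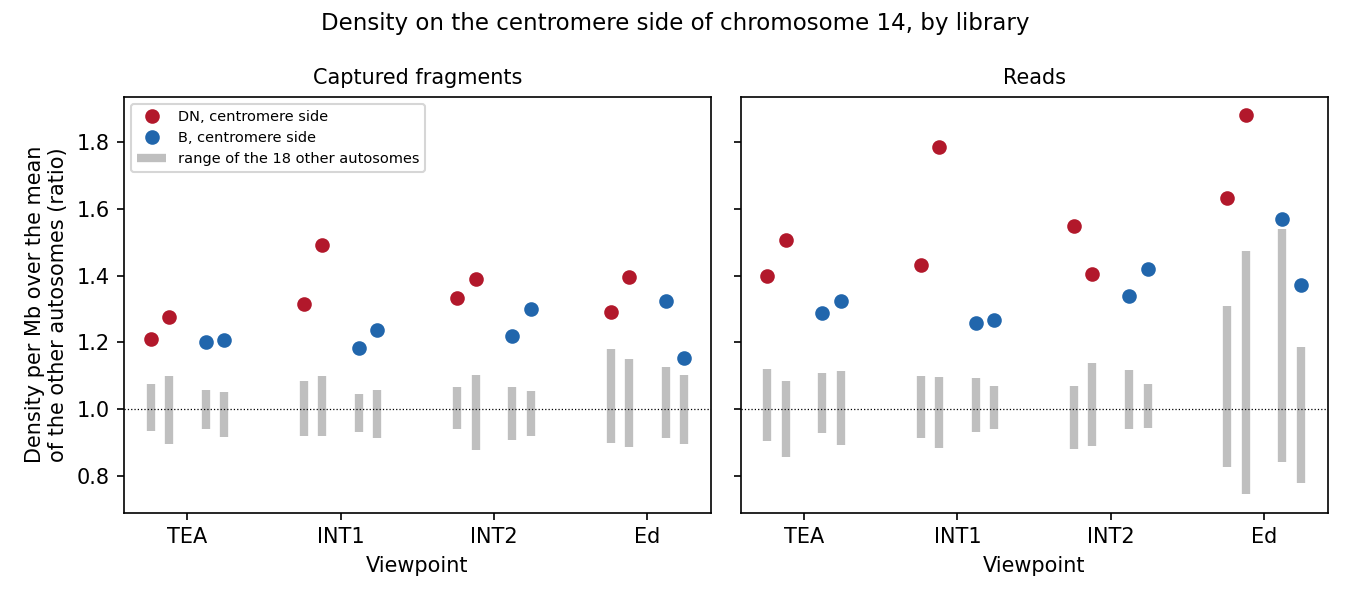
Density on the centromere side of chromosome 14 over the mean of the other autosomes of the same library, in captured fragments (left) and reads (right), by viewpoint. Each point is 1 library (DN red, B blue, 2 per viewpoint) and the grey bar behind it spans the 18 other autosomes. All 16 points lie above their grey bar in both panels, at 1.15 to 1.49 in captured fragments and 1.26 to 1.88 in reads.

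The excess stood out less on other bases. Per listed fragment in place of per Mb, the density was 1.12 to 1.39 in DN libraries and 1.07 to 1.23 in B libraries, and 15 of 16 libraries were above all 18 other autosomes. A fragment is listed only if a library had a read on it. The number listed therefore depends on contact itself and is not the number of HindIII fragments present. The same stretch of each other autosome, 3.00 to 49.7 Mb, was then taken in place of the whole autosome. In captured fragments 11 of 16 libraries were above all 18 stretches, and the others were above 15 to 17 of them. The highest stretch reached 1.39 in DN sample 2 from INT2. In reads each of the 4 samples had a stretch above the region from some viewpoint. In DN sample 2 from INT2 the region stood at 1.40 and the highest stretch at 1.61. In B sample 1 from INT1 these were 1.26 and 1.34. Longer fragments were captured more often throughout the genome. In the region 11.6% of the shortest 25% of fragments and 19.6% of the longest 25% were captured in an average library, against 10.8% and 16.1% on the other autosomes. The median listed fragment was 2848 bp long in the region and 2957 bp on the other autosomes.

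A part of the region carries fragments that could not be told from each other in the data. Of the 1963 members with reads in at least 4 libraries, 416 (21.2%) had exactly the same RPM as another fragment in all 16 libraries. This held for 6.76% of such fragments on the telomere side of chromosome 14 (beyond 57 Mb) and 11.3% on the other autosomes. For 352 of the 416 the partner also lay in the region, and for 334 it had a length within 30 bp. The fragments chr14:43336236-43353180 and chr14:43660785-43677710 are 16945 and 16926 bp long and 0.325 Mb apart, and had equal values in every library. The fragments chr14:4927173-4937346 and chr14:7280866-7291029 are 2.35 Mb apart and did so too. The labels and file headers do not say how reads that match several positions were assigned.

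Bins of 500 kb in which at least 5 such fragments made up 20% or more of those with reads in at least 4 libraries numbered 18 of 94 in the region. They lie at 3.0 to 8.5 Mb, 25 to 25.5 Mb, 26.5 to 27.5 Mb and 42.0 to 44.0 Mb. Without such bins on all autosomes, the density in captured fragments was 1.21 to 1.49 in DN libraries and 1.14 to 1.26 in B libraries, again above all 18 other autosomes in 16 of 16 libraries. Without the fragments themselves, and per listed fragment, it was 1.08 to 1.33 in DN and 1.01 to 1.16 in B, and 14 of 16 libraries were above all 18. The lowest value, 1.01, was that of B sample 2 from Ed.

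Contact frequency over the region did not fall steadily with the distance to the viewpoints. In captured fragments it was highest in the 5 to 15 Mb nearest to them, next highest between 10 and 20 Mb of the chromosome, and lower between and beyond. In reads the nearest zone was again the highest in each sample, but the order of the others differed between samples. Averaged over the viewpoints on the log2 scale, captured fragments between 40 and 49.7 Mb stood at 1.51 and 1.66 times the other autosomes in DN and at 1.56 and 1.52 in B. Between 30 and 40 Mb they stood at 1.11 and 1.23 in DN and at 1.10 and 1.09 in B. Between 20 and 30 Mb the values were 1.21 and 1.35 in DN and 1.15 and 1.12 in B. The step from 30 to 40 Mb up to 40 to 49.7 Mb was larger than the spread between samples of a cell type.

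Farther towards the centromere the order was uneven. Between 10 and 20 Mb it was 1.32 and 1.41 in DN and 1.2 and 1.25 in B, and between 3 and 10 Mb 1.26 and 1.22 in DN and 1.09 and 1.10 in B. In captured fragments all 4 samples were lower between 3 and 10 Mb than between 10 and 20 Mb. In reads DN sample 2 was higher there, at 1.66 against 1.37. In captured fragments DN lay above B in the 4 zones below 40 Mb, by sample, and overlapped B in the zone nearest the viewpoints. In reads the cell types overlapped only between 10 and 20 Mb and between 30 and 40 Mb. These zone differences were not tested singly. Without the bins of identical values, the median over libraries between 40 and 49.7 Mb was 1.40 in DN and 1.36 in B, close to the 1.38 in DN and 1.26 in B between 10 and 20 Mb. Between 30 and 40 Mb it was 1.16 in DN and 1.13 in B, and between 3 and 10 Mb 1.57 in DN and 1.37 in B. The zone from 3 to 10 Mb then keeps only its last 1.5 Mb.

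A least-squares line through the 500 kb bins, positive where values are higher towards the viewpoints, had a slope of 0.04 ± 0.02 on the log2 scale per 10 Mb in DN and 0.08 ± 0.01 in B (SD, n = 2). The slope of captured fragments was positive in 14 of 16 libraries, 6 of 8 in DN and 8 of 8 in B. That of reads was positive in 10 of 16. An exact two-sided permutation test of DN against B gave p = 0.333, the smallest p that 2 samples against 2 allow. Without the bins of identical values the slope was -0.02 ± 0.02 in DN and 0.02 ± 0.02 in B, and positive in 9 of 16 libraries.

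The other side of the chromosome was set beside it at matched distance. The mirror stretch on the telomere side, 59.7 to 106.4 Mb, covers the same distances from the viewpoints. The centromere side exceeded it in captured fragments by 0.19 in DN sample 1 and -0.01 in DN sample 2, against 0.07 in B sample 1 and 0.07 in B sample 2, on the log2 scale. The mean difference was 0.09 ± 0.14 in DN and 0.07 ± 0.004 in B (SD, n = 2, exact permutation p = 1). The difference was positive in 6 of 8 DN libraries and 8 of 8 B libraries, and without the bins of identical values in 5 of 8 of each. On the mirror side the median density stood at 1.36 in DN and 1.26 in B at 5 to 15 Mb from the viewpoints and at 1.01 and 1.07 at the far end.

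**Figure D2:**
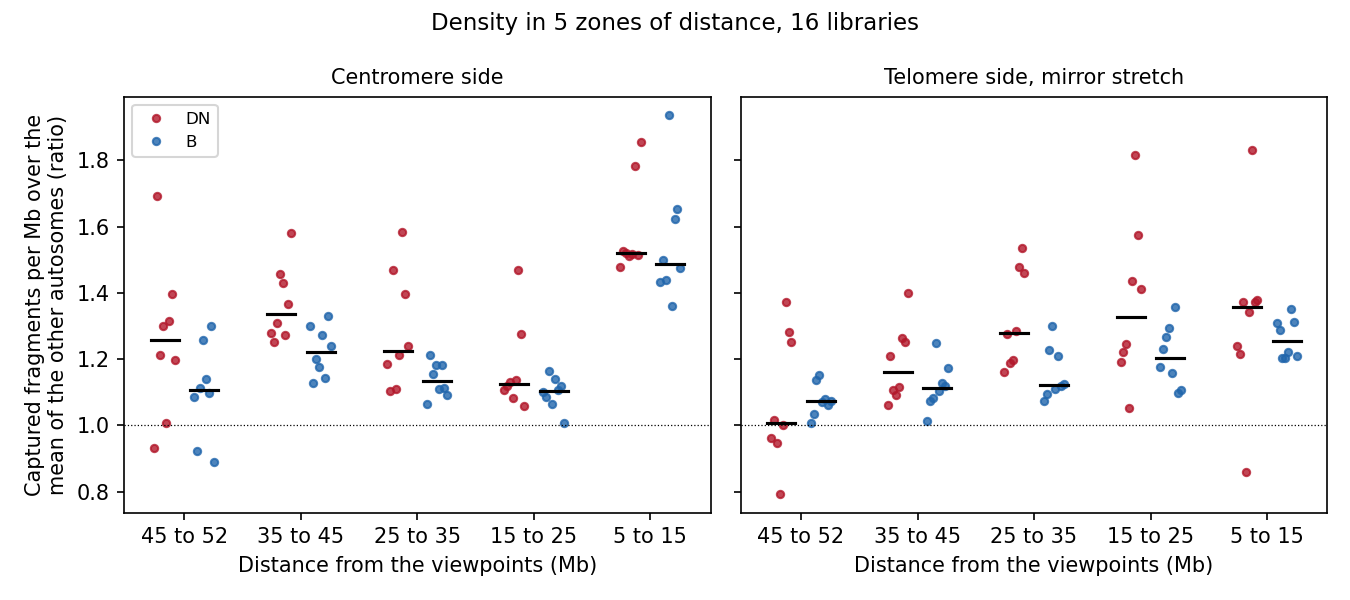
Captured fragments per Mb over the mean of the other autosomes in 5 zones of distance, centromere side (left) and the mirror stretch of the telomere side (right). Points are libraries (8 DN red, 8 B blue) and black lines are medians; distances are rounded to whole Mb. On the centromere side the nearest zone stands at medians of 1.52 in DN and 1.49 in B, above the other 4 zones.

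The 94 bins of 500 kb held 54 to 130 listed fragments each, with a median of 105.5. Averaged over viewpoints and samples, bins ranged from 0.558 to 2.48 times the density of the other autosomes in DN and from 0.653 to 2.41 in B. The profile was shared by the samples. Over the 94 bins, which share their listed fragments, the correlation of log2 values was 0.83 between the DN samples, 0.76 between the B samples and 0.65 to 0.74 between a DN and a B sample. Per listed fragment the correlation between DN and B means was 0.72, and the bin values correlated at 0.40 with the number of listed fragments. Single libraries were less alike, with 0.34 to 0.69 between DN replicates and 0.42 to 0.59 between B replicates of a viewpoint.

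Bins were tested against 0, the mean density of the other autosomes on the log2 scale, in a single limma fit over 4806 autosomal bins. In DN 44 of the 94 bins were higher, where 17% of all autosomal bins were, and 7 were lower, where 26% of all were (limma, adjusted p under 0.05). In B 21 bins were higher and 1 was lower, against 8.91% and 3.91% of all bins. Of the other autosomes' bins 15.6% in DN and 8.32% in B were higher. On the telomere side 48 of 137 bins in DN and 19 of 137 in B were higher. All 21 bins that were higher in B were among the 44 of DN, which is 47.7% of the DN bins. Per listed fragment, 29 bins in DN and 8 in B were higher, where 11.2% and 2.87% of all bins were. Without B sample 1, or without B sample 2, the B count was 6 (1.64% and 1.71% of all bins), and without DN sample 1 or DN sample 2 it was 34 (14% and 14.4% of all bins).

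The difference between the 2 counts is not itself a test of DN against B, which is given further below. The median bin of the region stood at 1.22 in DN and 1.13 in B, while the median bin of the other autosomes stood at 0.885 in DN and 0.938 in B.

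**Figure D3:**
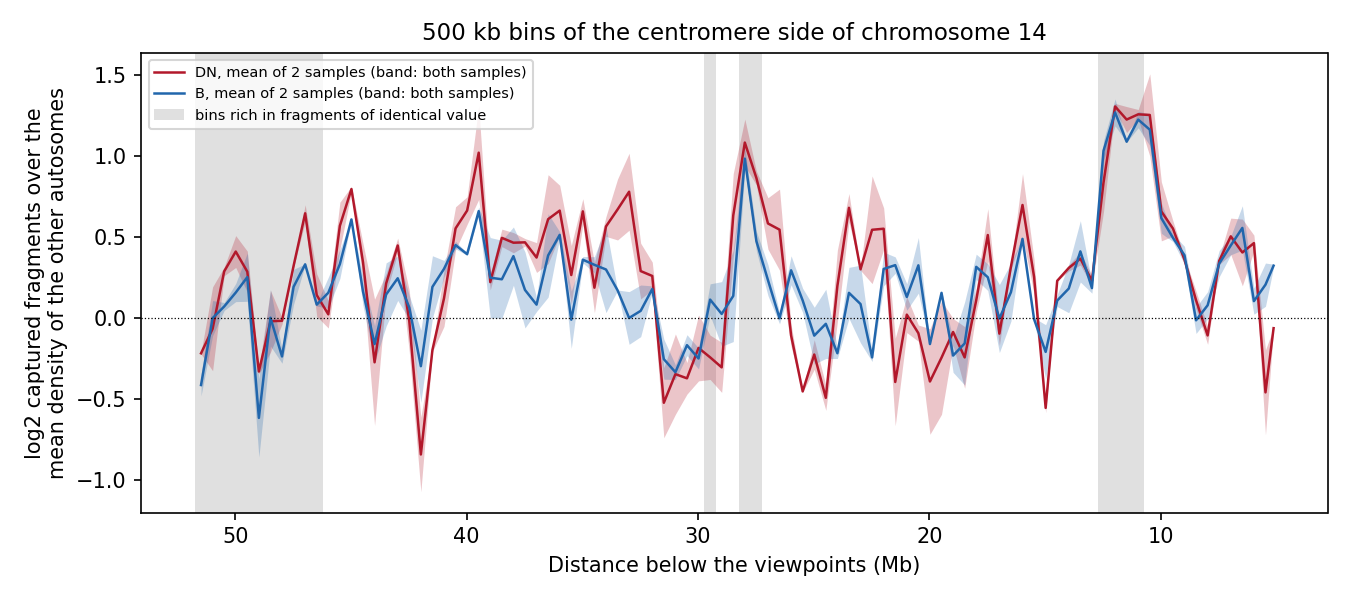
Captured fragments in the 94 bins of 500 kb, as log2 over the mean density of the other autosomes (dotted line at 0), against the distance below the viewpoints in Mb. Lines are means of 2 samples over the 4 viewpoints (DN red, B blue), bands span both samples, and grey marks the 18 bins rich in fragments of identical value. A block of 5 bins with centres 10.5 to 12.5 Mb below the viewpoints stands at 1.79 to 2.48 times the other autosomes in both cell types.

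A block of 5 neighbouring bins, 42.0 to 44.5 Mb, held the 5 highest bins of B and 4 of the 5 highest of DN. Its first bin, 42.0 to 42.5 Mb, ranked 8 in DN. The highest bin was 42.5 to 43.0 Mb, with 2.44 and 2.51 times the density of the other autosomes in DN and 2.28 and 2.56 in B. The bin 43.5 to 44.0 Mb stood at 2.35 and 2.44 in DN and 2.26 and 2.42 in B. The bin 44.0 to 44.5 Mb stood at 2.0 and 2.85 in DN and 2.40 and 2.09 in B. All 3 were above 1 in all 16 libraries, and the cell types overlapped.

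The bin 43.0 to 43.5 Mb stood at 2.21 and 2.47 in DN and 2.13 and 2.13 in B, and 42.0 to 42.5 Mb at 2.03 and 1.58 in DN and 2.14 and 1.96 in B. The fifth of the highest DN bins lay apart, at 26.5 to 27.0 Mb, with 2.35 and 1.92 in DN and 1.89 and 2.07 in B. All 6 bins passed the test against 0 in both cell types. The bins on either side of the block were lower. The bin 41.5 to 42.0 Mb stood at 1.17 in DN and 1.14 in B, and the bin 44.5 to 45 Mb at 1.58 in DN and 1.54 in B.

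The highest bins are largely those with fragments of identical value. In the bin 26.5 to 27.0 Mb 54 of the fragments with reads in at least 4 libraries were of this kind, 85.7% of them. Without them, and per listed fragment, this bin stood at 1.27 and 1.45 in DN and at 0.980 and 0.697 in B. In the block from 42.0 to 44.5 Mb their percentage was 44.4, 49.2, 49.1, 31.7 and 11.8 from the first bin to the fifth. Per listed fragment, the 5 bins stood at 1.86 to 2.44 in DN and 2.08 to 2.34 in B with these fragments (means of 2 samples), and at 1.57 to 2.17 in DN and 1.82 to 2.17 in B without them. The bin 26.5 to 27.0 Mb stood at 1.90 in DN and 1.77 in B with them on this scale.

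The 3 lowest bins of each cell type were different bins, though all ranked low in the other cell type too. In DN they were 12.5 to 13.0 Mb, with 0.654 and 0.476 in DN and 0.95 and 0.698 in B, 39.5 to 40 Mb, with 0.667 and 0.695 in DN and 0.973 and 0.771 in B, and 23.0 to 23.5 Mb, with 0.809 and 0.60 in DN and 0.770 and 0.914 in B. All 3 were lower than the other autosomes in DN (limma adjusted p 0.0028, 0.0144 and 0.0221) and did not pass in B. In B the lowest were 5.5 to 6.0 Mb, with 0.805 and 0.787 in DN and 0.772 and 0.552 in B, 3.0 to 3.5 Mb, with 0.863 and 0.858 in DN and 0.787 and 0.717 in B, and 23.5 to 24.0 Mb, with 0.935 and 0.663 in DN and 0.819 and 0.769 in B. Of these, 5.5 to 6.0 Mb was lower than the other autosomes in B (limma adjusted p 0.0332). The bins 3.0 to 3.5 and 5.5 to 6.0 Mb hold 74 and 70 listed fragments, fewer than the median bin, and per listed fragment stood at 1.11 and 1.08 in DN and 0.973 and 0.893 in B. Counted from the highest of the 94 bins, the 3 lowest of DN ranked 91, 84 and 90 in B, in the order given. The 3 lowest of B ranked 84, 77 and 85 in DN.

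The cell types were then compared over the region as a whole. Relative to the other autosomes, centromere-side density was higher in DN than in B in the mean over viewpoints, without passing the threshold. The telomere side had a like ratio. Averaged over the viewpoints, captured fragments stood at 1.29 and 1.39 in DN and 1.23 and 1.22 in B, a ratio of DN over B of 1.09 (95% interval 1.02 to 1.16). The adjusted p in limma over 20 features (both sides of chromosome 14 and 18 other autosomes) was 0.134, with 0% of the features called. The telomere side had a ratio of 1.08 in captured fragments and 1.22 in reads, and relative to it the log2 difference of the centromere side was 0.007 in captured fragments. By viewpoint the ratio was 1.03 (TEA), 1.16 (INT1), 1.08 (INT2) and 1.09 (Ed), at limma adjusted p of 0.388, 0.214, 0.178 and 0.780, and again 0% of the features were called. Unadjusted, the mean, INT1 and INT2 had p of 0.0134, 0.0335 and 0.0178.

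In reads, the mean over viewpoints was 1.5 and 1.63 in DN and 1.36 and 1.35 in B, a ratio of 1.16 (95% interval 1.06 to 1.26, limma adjusted p 0.104, 0% of features called). Before division, the region's reads per Mb were lower in DN than in B from TEA, INT1 and INT2 and overlapped from Ed. From INT1 they were 414 and 395 RPM per Mb in DN and 415 and 416 in B. Those of the other autosomes were lower in DN from all 4 viewpoints, from INT1 at 289 and 221 in DN and 330 and 328 in B. The ratios therefore do not mean that more of a library's reads fell on the region in DN. An exact permutation test over samples gave p of 0.333 or 0.667 in each of the 10 comparisons. The smallest p that 2 samples against 2 allow is 0.333. In limma INT1 reads were the only one of the 10 to pass. They stood at 1.43 and 1.79 in DN and 1.26 and 1.27 in B, a ratio of 1.27 (95% interval 1.14 to 1.41, limma adjusted p 0.00134). From this viewpoint 10% of the 20 features were called, and the other one was the telomere side of the same chromosome, with a ratio of 1.21 (adjusted p 0.00769). In this fit limma gave all 20 features the same SE, 0.0764 on the log2 scale, drawn from the features as a set. The region's own SD was 0.226 in DN and 0.0062 in B. INT2 in captured fragments and TEA in reads had a common SE too. From TEA, INT2 and Ed the ratios were 1.11, 1.07 and 1.19 at limma adjusted p of 0.433, 0.716 and 0.603, with 0% of features called. The groups overlapped for captured fragments from Ed and for reads from INT2, and were apart in the other comparisons. With 2 samples against 2, groups that are apart have an exact permutation p of 0.333. The comparisons share libraries and are not independent. The share of the other features with the groups apart was not counted.

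The INT1 call was lost without the bins of identical values (log2 0.26, limma adjusted p 0.338), without the fragments themselves (log2 0.29, adjusted p 0.352), relative to the telomere side (log2 0.06, adjusted p 0.768) and without B sample 1 or B sample 2 (adjusted p 0.333 and 0.208). The mean over viewpoints passed without DN sample 1 in captured fragments (log2 0.18, adjusted p 0.00510) and without either DN sample in reads (log2 0.27 and 0.15), fits in which the lone DN sample is assumed to vary like the B samples.

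**Figure D4:**
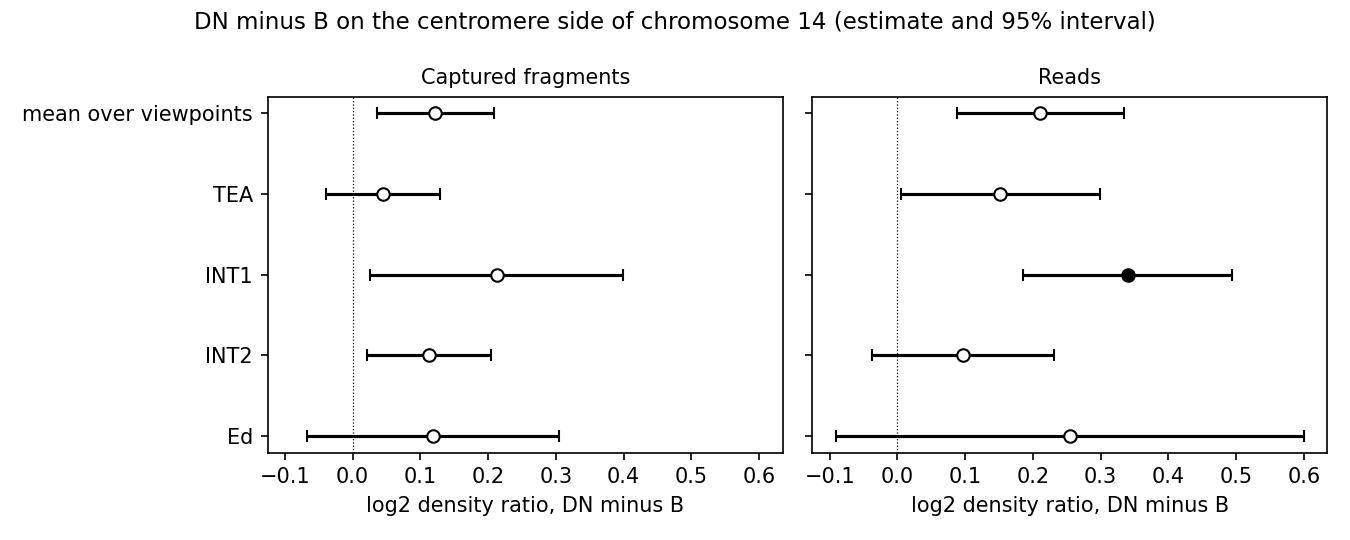
Difference of log2 density on the centromere side of chromosome 14, DN minus B, for captured fragments (left) and reads (right). Points are limma estimates from 2 DN and 2 B samples, bars are 95% intervals, and the filled point marks the comparison that passed the adjusted threshold, reads from INT1 at 0.34.

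Bin by bin, no part of the region passed the test between DN and B. In captured fragments 0 of the 94 bins were called for the mean over viewpoints, where limma called 0.0208% of the 4806 autosomal bins. None was called from TEA, INT1, INT2 or Ed either, where 0.0208%, 0.0208%, 0.0624% and 0% of all bins were. In reads 0 of 94 were called in each of the 5 fits, where 0% of all bins were called for the mean, INT1, INT2 and Ed and 0.0416% for TEA. At an unadjusted p under 0.05 limma had 13, 14, 11, 10 and 7 of the 94 bins for the mean, TEA, INT1, INT2 and Ed in captured fragments. These are 13.8%, 14.9%, 11.7%, 10.6% and 7.45% of the region's bins, where 10.3%, 5.85%, 7.87%, 6.99% and 5.85% of all bins had such a p. In reads there were 6, 3, 6, 4 and 9, which are 6.38%, 3.19%, 6.38%, 4.26% and 9.57%, where 7.24%, 4.54%, 4.12%, 9.38% and 5.53% of all bins had one. On recovered reads edgeR called 0 bins from INT1, INT2 and Ed. At an unadjusted p under 0.05 it had 6, 3 and 2 of the 94, or 6.38%, 3.19% and 2.13%, where 3.6%, 6.72% and 3.89% of all bins had one.

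Both DN values lay on the same side of both B values in 45 of the 94 bins for the mean over viewpoints, 47.9%, where 42.2% of all autosomal bins did. They were above B in 30 and below B in 15, and the share of all bins in each direction was not counted. The median log2 difference was 0.08 over the region and -0.05 over all bins tested. Without DN sample 1 limma called 13 of the 94 bins (13.8%) for the mean in captured fragments, where 10.9% of all bins were called. It called 0 of the 94 without any other sample.

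The bins below, picked after their values were seen, show the size of what was not resolved. They have the largest differences among bins with both DN samples on one side of both B samples. The bin 21.5 to 22.0 Mb had 68 and 61 captured fragments summed over the viewpoints in DN and 67 and 64 in B. Against the density of the other autosomes these were 1.46 and 2.03 in DN and 1.12 and 0.894 in B, a log2 difference of 0.78 (SE 0.19, limma adjusted p 0.109). The bin 32.0 to 32.5 Mb stood at 1.16 and 1.84 in DN and 0.831 and 0.860 in B, a difference of 0.79 (SE 0.20, limma adjusted p 0.176). Neither holds fragments of identical value.

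The largest differences in the other direction lay at 33.0 to 33.5 Mb, with 0.918 and 0.631 in DN and 1.21 and 1.30 in B, a difference of -0.72 (SE 0.21, limma adjusted p 0.319), and at 49.0 to 49.5 Mb, with 0.873 and 0.607 in DN and 1.27 and 1.05 in B, a difference of -0.67 (SE 0.22, limma adjusted p 0.356). Both DN samples were on one side of both B samples in all 4 bins because the bins were picked that way. DN sample 2 was farther from B than DN sample 1 in all 4. DN sample 2 also captured fewer members than DN sample 1 from every viewpoint.

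At the upper limit neighbouring bins varied on both sides of it. The last bins inside, 48.5 to 49.0 and 49.0 to 49.5 Mb, had log2 values of 0.46 and -0.46 in DN and 0.11 and 0.21 in B, and the remaining 0.2 Mb up to the limit -0.06 in DN and 0.32 in B. The first bins outside, 49.7 to 50.0 and 50.0 to 50.5 Mb, stood at 0.59 and -0.09 in DN and 0.57 and 0.35 in B.

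The viewpoints were compared within samples, since all 4 were read from the same cells. The region's density did not differ between any pair of viewpoints beyond the threshold. In captured fragments 0 of 6 pairs passed, where 3.33% of the 120 tests over 20 features did. TEA against INT2 was the widest pair, at a ratio of 0.935 (95% interval 0.883 to 0.989, limma adjusted p 0.232). INT1 against Ed, at 1.01, had an interval of 0.955 to 1.07, and INT2 against Ed, at 1.02, one of 0.961 to 1.08. In reads 0 of 6 pairs passed, where 1.67% of the 120 tests did. TEA against Ed was widest at a ratio of 0.859 (95% interval 0.771 to 0.957, limma adjusted p 0.0985). The difference of DN from B did not vary between viewpoints beyond the threshold either, at limma adjusted p of 0.783 and above in captured fragments and 0.786 and above in reads.

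Few single fragments were captured in many of the libraries. Reads in at least 2 libraries were found for 61.5% of the members, against 53.6% of the fragments listed on the other autosomes. Of the 9780 members 38.5% had reads in 1 library only, against 46.4% of the fragments listed on the other autosomes, and 2.42% against 1.52% had reads in at least 8. None had reads in all 16. Members with reads in DN libraries only numbered 1722, those with reads in B libraries only 3797 and those with reads in both 4261. These are 17.6%, 38.8% and 43.6% of the members, against 19.2%, 45.5% and 35.3% of the fragments listed on the other autosomes. From TEA, the DN samples shared 484 captured members, 24.5% of those of sample 1 and 34.9% of those of sample 2, where the other autosomes had 20.9% and 31.3%. The B samples shared 868, 36.4% and 30.9%, where the other autosomes had 31.9% and 27.2%. From Ed the DN samples shared 136 (21.6% and 25.4%, against 19.0% and 24.1% on the other autosomes) and the B samples 216 (25.8% and 22.3%, against 23.6% and 17.8%). From INT1 the shares were likewise above those of the other autosomes in both cell types. From INT2 the DN shares were lower than on the other autosomes, at 29.2% and 31.5% against 29.7% and 33.3%. The B shares from INT2 were 28.1% and 21.9%, against 25.2% and 21.0%.

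2 members had reads in 15 libraries, 1 in 14 and 9 in 13, and of those 9 the 2 with the highest mean RPM are described with the first 3. The members with reads in 15 libraries were the pair chr14:43336236-43353180 and chr14:43660785-43677710. Their equal values were 23.1, 7.51, 21.0 and 0.819 RPM in DN sample 1 and 0.20, 10.3, 0.268 and 62.6 RPM in DN sample 2 from TEA, INT1, INT2 and Ed. They were 5.07, 7.09, 13.9 and 0.283 RPM in B sample 1 and 0, 5.55, 0.0636 and 18.3 RPM in B sample 2. From INT1 both DN values were slightly above both B values, and from the other viewpoints the groups overlapped. The pair chr14:43362518-43366062 and chr14:44171437-44174979, 3545 and 3543 bp long, had reads in 13 libraries. In DN it reached 176 RPM in sample 2 from TEA and in B 81.6 RPM in sample 1 from Ed.

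The remaining member, chr14:15946641-15951519, is 4879 bp long and shares its value with no other fragment. It had reads in 6 of 8 DN libraries and 8 of 8 B libraries. The values were 0, 2.86, 0.524 and 0.819 RPM in DN sample 1 and 0, 0.413, 0.134 and 0.310 RPM in DN sample 2 from TEA, INT1, INT2 and Ed. They were 0.350, 0.139, 39.9 and 6.80 RPM in B sample 1 and 7.06, 12.2, 33.4 and 7.0 RPM in B sample 2. From TEA, INT2 and Ed both B samples were above both DN samples, and from INT1 B sample 1 was below both DN samples. Single fragments were not tested.

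**Figure D5:**
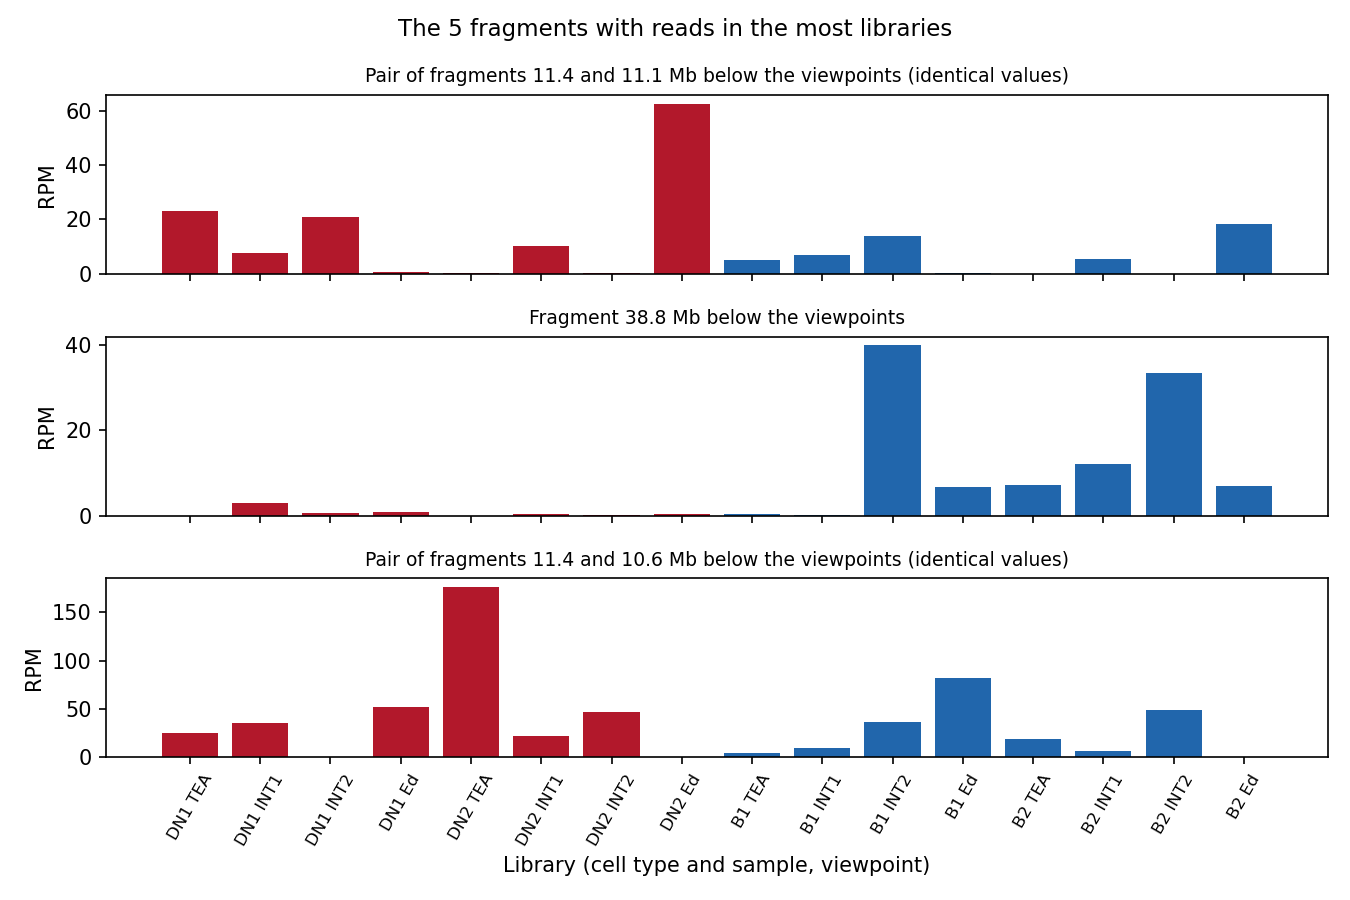
RPM of the 5 fragments described, those with reads in the most libraries with ties broken by mean RPM, by library (DN red, B blue). The pairs have identical values in all 16 libraries and are drawn once; the single fragment 38.8 Mb below the viewpoints averages 0.632 RPM in DN and 13.3 RPM in B.

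A few fragments weighed on the read measure. In DN sample 2 from Ed, chr14:44237791-44239853 held 16.1% of all reads of the region, at 4190 RPM, and lies in the bin 44.0 to 44.5 Mb. In the other 15 libraries the top fragment held 0.360% to 5.14%. The fragment chr14:41883719-41884855 was the top one in 4 libraries, INT1 in DN sample 1, in B sample 1 and in B sample 2, and INT2 in B sample 1. The median captured member had 8 to 62.5 reads in DN libraries and 34 to 92 in B libraries, and it had more reads than the median captured fragment of the other autosomes in 15 of 16 libraries.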

How the data were processed

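The members, bins and alternatives were chosen with earlier results of these data known. Per the labels' protocols, HindIII-cut chromatin was ligated, cut again with DpnII, ligated into circles and read outward by PCR from 4 viewpoints. CASAVA, Bowtie and mm9 are named, with no settings, per the submitters' processing notes. The authors deposited 1 value per captured HindIII fragment in RPM (reads scaled to 1000000 mapped reads), with fragments padded by 40 bp per the file headers. Their replicate means were not used. A fragment absent from a library was set to 0. Each library's smallest value was taken as 1 read, and 99.999% or more of the values of each library were whole multiples of it within 0.01 read; this step is less sure for DN sample 2 of TEA, which edgeR therefore left out.

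The log2 of the density over that of the other autosomes was fitted with limma 3.58.1 (R 4.3.3) for 2 DN and 2 B libraries of a viewpoint, and for the mean over the viewpoints of each sample. In 500 kb bins with at least 30 listed fragments, all 94 of the region among them, a pseudocount of 0.5 fragments was added to both sides of the ratio (0.1 to the ratio for reads) and a mean-variance trend was used. Fold values of bins are on this scale, which understates differences of low bins. Chromosome 14 within 1 Mb of the viewpoints was left out. Viewpoint pairs were fitted with sample as a block. P-values were adjusted by Benjamini-Hochberg over 20 features, 120 tests or 4806 bins, threshold 0.05, two-sided. The bin test was also run on simulated data, and no result above rests on that run. The named bins are the 5 highest and 3 lowest per cell type, those called and the 2 on each side of the limit; fragments are the 5 with reads in the most libraries.

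Same-numbered samples were not said to be paired, and their deviations correlated at 0.05 over 4806 bins. Alternatives added after the data were seen are edgeR 4.0.16 on recovered reads, leaving out fragments or bins of identical value, and crossed replicate numbers. Other tools were Python 3.11.15, numpy 2.4.6, pandas 2.3.3, scipy 1.17.1 and matplotlib 3.10.9.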

Additional observations from a re-analysis of the deposited data

How the results depend on the processing

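Of the alternatives for the region's difference of DN from B, 56 of 65 in captured fragments and 50 of 65 in reads kept direction and side of the threshold. A call was gained with the replicate block for captured fragments of the mean (log2 0.12, adjusted p 0.0322) and INT1 (0.21, adjusted p 0.00145), without the last 5 Mb for INT2 fragments (0.14) and mean reads (0.22), with at least 2 reads for INT2 fragments (0.18) and with the median bin for mean reads (0.31). The block changed no other call. With samples omitted, calls were also gained without DN sample 1 for TEA fragments (adjusted p 0.000525), TEA reads (0.0439) and Ed reads (0.0457), and without B sample 2 for INT1 fragments (0.00943). The INT1 read call was lost over the telomere side (0.062) and without fragments (0.29) or bins (0.26) of identical value. Over the telomere side the sign turned for TEA (-0.039) and INT2 (-0.026) fragments and for mean (-0.071), TEA (-0.044), INT2 (-0.030) and Ed (-0.27) reads. The causes were not tested.

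When 1 sample at a time was omitted, the log2 difference in fragments ranged from 0.068 to 0.18 for the mean, 0.0075 to 0.082 for TEA, 0.12 to 0.30 for INT1, 0.07 to 0.16 for INT2 and 0.02 to 0.22 for Ed. In reads it ranged from 0.15 to 0.27, 0.10 to 0.20, 0.18 to 0.50, 0.03 to 0.17 and 0.15 to 0.36. Called bins ranged from 0 to 13, 8, 0, 5 and 0 in fragments and from 0 to 5, 2, 12, 6 and 10 in reads, in the same order; counts above 0 arose without DN sample 1, where 10.9%, 7.30%, 0.0208%, 4.02% and 0% of all bins were called in fragments and 10.1%, 6.82%, 8.82%, 7.26% and 7.84% in reads, and for 1 INT2 bin without DN sample 2 (1.44% of all). For the mean in fragments, 1 bin of 1 Mb was called (0.499% of all) and 2 bins with crossed replicate numbers (0.229% of all). The fits with a sample omitted leave 1 sample in a group, assumed to vary like the other group.

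Bins above the other autosomes numbered 28 of 47 in DN and 18 of 47 in B with 1 Mb bins (23.2% and 14.9% of all), and 29 in DN and 8 in B per listed fragment (11.2% and 2.87% of all); with samples left out, 35 to 42 in DN and 6 to 34 in B. The centromere side minus the mirror side differed between DN and B by 0.02 on the log2 scale in fragments, by -0.068 in reads and by -0.082 to 0.12 with samples left out. The slopes differed by -0.04 in fragments and -0.080 in reads. Shallow libraries (Ed, 536 to 969 captured members) limit single bins.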
